A study of Mus musculus with 3 samples.

Results

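Foxp3-negative T cells were taken as barcodes that carried T cell receptor signalling subunits without Foxp3, the defining factor of regulatory T cells. A barcode is the tag of 1 droplet, and a UMI is 1 tagged RNA molecule. Barcodes with at least 200 genes and at most 10% mitochondrial UMIs were kept, and a member had at least 2 UMIs of Cd3d, Cd3e and Cd3g together, 0 of Foxp3, 0 of the fibroblast receptor Pdgfra, and at most 5 of the keratinocyte keratins Krt5 and Krt14 together. This rule gave 581 members of 23384 kept barcodes, out of 26881 barcodes in all. They comprised 240 members of 10297 kept barcodes in non-lesional skin, 48 of 7945 in the day 2 wound and 293 of 5142 in the day 7 wound.

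The study profiled dissociated mouse skin by droplet RNA sequencing of 3′ ends in 3 libraries. The libraries held non-lesional dorsal skin, the wound bed at day 2 after wounding and the wound bed at day 7. All mice were male C57BL/6 animals aged 7 to 9 weeks, and both wound groups received full-thickness wounds of 1.0 cm by 0.5 cm on each side of the back during telogen, the resting phase of the hair cycle. Cells were released with collagenase D and DNase1, and the labels do not say how many animals each library holds. Each condition had 1 library, so no difference between conditions has a replicate check and no p-value is given. Intervals are exact 95% intervals that cover counting error only, and UMIs of a gene that come mostly from a few members vary more than such intervals allow.

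T cells of mouse skin live in the epidermis and the dermis, and many of them bear a gamma-delta rather than an alpha-beta receptor. T cells of the type 17 programme secrete the cytokines IL-17A and IL-17F, which act on keratinocytes, fibroblasts and the recruitment of neutrophils. XCL1 is a chemokine made by activated cytotoxic and epidermal T cells, which draws cross-presenting dendritic cells, and granzymes are the proteases of cytotoxic granules. CXCR6 is a chemokine receptor carried by many T cells that stay in tissues. The receptor chain genes that would separate the lineages were not analysed here, so lineages are not assigned.

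The promoters of Il17a, Il17f and Xcl1 are shown because no member with Xcl1 carried Il17a or Il17f. Each run gives the 250 bases before the transcription start, 5′ to 3′ on the strand of the gene, from RefSeq on GRCm38.p6, with the start at the right-hand end. They lie at chr1:20730655-20730904 on the + strand for Il17a, chr1:20784271-20784520 on the - strand for Il17f and chr1:164935523-164935772 on the - strand for Xcl1. Capitals mark AGGTCA on either strand, the core letters recognised by many nuclear receptors.
Il17a: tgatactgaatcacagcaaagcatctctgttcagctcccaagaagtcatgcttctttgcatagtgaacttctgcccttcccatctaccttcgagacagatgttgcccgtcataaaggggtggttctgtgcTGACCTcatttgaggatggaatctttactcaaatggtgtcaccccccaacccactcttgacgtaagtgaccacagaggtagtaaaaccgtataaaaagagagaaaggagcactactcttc
Il17f: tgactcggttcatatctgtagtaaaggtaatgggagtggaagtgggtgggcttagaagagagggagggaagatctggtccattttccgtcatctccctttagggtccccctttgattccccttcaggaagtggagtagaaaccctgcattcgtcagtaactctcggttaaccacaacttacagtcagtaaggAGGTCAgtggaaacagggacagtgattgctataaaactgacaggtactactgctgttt
Xcl1: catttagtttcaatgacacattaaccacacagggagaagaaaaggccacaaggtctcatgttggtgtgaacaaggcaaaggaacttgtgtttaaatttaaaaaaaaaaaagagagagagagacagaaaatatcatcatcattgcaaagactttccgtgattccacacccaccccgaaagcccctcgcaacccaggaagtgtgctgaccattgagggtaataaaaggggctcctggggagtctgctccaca
The Il17a window held 1 match on the reverse strand, whose leftmost base lay 120 bases before the start, and the Il17f window held 1 on the forward strand at 58 bases before it. The Xcl1 window held 0 matches. AGGTCA on either strand was present in 4607 of 32851 RefSeq promoter windows of this length (14.0%), so a match describes the letters and not a bound site. In GENCODE M21 on GRCm38 all 3 genes are protein coding, with Il17a at chromosome 1, 20730905 to 20734496, Il17f at 20777146 to 20790617 and Xcl1 at 164931644 to 164935527, so that the RefSeq start of Il17f lies inside the longer GENCODE gene.

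Members were a larger share of the kept cells in the day 7 wound than in non-lesional skin, and a smaller one in the day 2 wound. They made up 2.33% of kept barcodes in non-lesional skin (2.05 to 2.64%), 0.604% in the day 2 wound (0.446 to 0.8%) and 5.70% in the day 7 wound (5.08 to 6.37%). These intervals do not overlap. A share depends on every other cell type recovered, so it does not give the number of T cells in the tissue. It also depends on the filter. The limit on mitochondrial UMIs left out 368 of 10857 barcodes in non-lesional skin, 372 of 8707 in the day 2 wound and 1632 of 7317 in the day 7 wound. Of these, 3, 4 and 20 met the CD3 rule, so the filter raised the share of kept barcodes most at day 7. Foxp3-positive T cells, chosen by the same rule except for Foxp3, numbered 6, 9 and 162, and were 2.44%, 15.8% and 35.6% of all T cells so defined in non-lesional skin, the day 2 wound and the day 7 wound. The Foxp3-negative members therefore made up a smaller fraction of T cells at day 7 than in non-lesional skin, while their share of kept barcodes was higher.

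Members were read at different depths. Their median was 3631 UMIs in non-lesional skin (787 to 27389), 1619.5 in the day 2 wound (510 to 9942) and 2302 in the day 7 wound (582 to 53275). Summed member UMIs came to 1083405, 109980 and 933032 in non-lesional skin, the day 2 wound and the day 7 wound, so that 1 UMI stood for 0.923, 9.09 and 1.07 CPM, counts of a gene scaled to the same round total in each library, in these sums. The whole libraries held 123088680, 138046172 and 102345327 UMIs. Barcodes shared between libraries numbered 14 to 24 for each pair, and 1 member barcode occurred as a member in 2 libraries, the day 7 wound and non-lesional skin. Levels below are CPM over the summed members of a library, in which fewer expressing cells and less RNA per cell cannot be told apart.

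**Figure D1:**
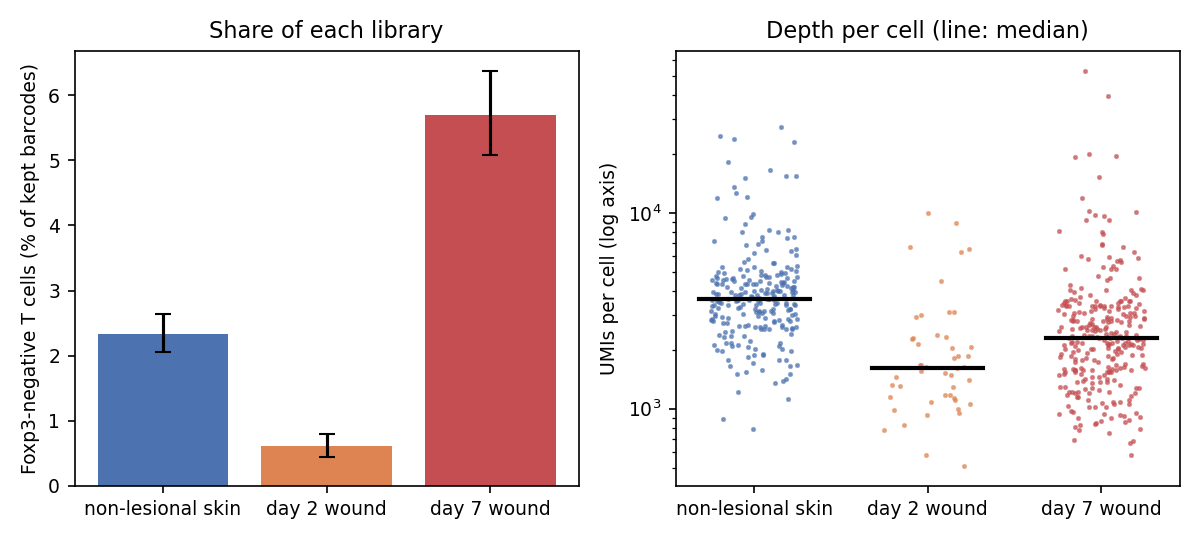
The left panel plots members as a percentage of kept barcodes in each library, with exact 95% binomial intervals as bars, and the right panel plots UMIs per member on a log axis, with 1 point per member. The share is 0.604% in the day 2 wound and 5.70% in the day 7 wound, and the median depth is lowest in the day 2 wound.

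The markers given for these cells were present in all 3 libraries. Cd3g, a receptor subunit that the rule itself used, stood at 1179, 546 and 1177 CPM in non-lesional skin, the day 2 wound and the day 7 wound. The others were not used by the rule and were near 0 in fibroblasts, apart from Il18r1 at 8.95 CPM in fibroblasts of non-lesional skin. Nkg7, a granule membrane protein of cytotoxic cells, stood at 681, 164 and 494 CPM in the same libraries, Il18r1, the IL-18 receptor chain, at 112, 400 and 270 CPM, Ms4a4b, a membrane protein of T cells, at 76.6, 218 and 184 CPM, and Il7r, the IL-7 receptor chain, at 168, 500 and 669 CPM. Each of the markers other than Cd3g was found in a minority of members in at least 1 library, with 48.75% of non-lesional members carrying Nkg7 and 17.5% carrying Ms4a4b.

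The rule has a threshold of 2 CD3 UMIs. Members with exactly 2 numbered 33, 22 and 66 in non-lesional skin, the day 2 wound and the day 7 wound, and barcodes with 1 that met every other condition numbered 48, 59 and 82. Il7r stood at 225, 517 and 696 CPM in members with 2, and at 119, 285 and 371 CPM in barcodes with 1. Col1a1, a fibroblast collagen, stood at 583, 853 and 6036 CPM in members with 2 and at 9658, 1316 and 6716 CPM in barcodes with 1. RNA of other cells was present among the members themselves. The 8 genes of a fibroblast list summed to 26624, 2573 and 13664 CPM in non-lesional skin, the day 2 wound and the day 7 wound, with at most 38.1% of the UMIs of any member, and 7 keratinocyte genes to 1854, 18.2 and 57.9 CPM. A list of 7 dendritic cell genes summed to 1214, 5492 and 2742 CPM, 7 of neutrophils to 2.77, 1518 and 39.7 CPM, 9 of macrophages to 129, 72.7 and 270 CPM, and 5 of red cells to 4976, 11029 and 6595 CPM. Of the 7 keratinocyte genes 6 were at 0 in the day 2 wound, and 6 of the 7 neutrophil genes were at 0 in non-lesional skin. The part of these other cells in the results was not tested except where members rich in their RNA were left out. That alternative did not count red cell genes. Those made up at most 54.4%, 51.3% and 36.9% of the UMIs of any member in non-lesional skin, the day 2 wound and the day 7 wound.

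The IL-17 cytokine genes were lower in members of both wounds than in those of non-lesional skin. Il17a was detected in 57 of 240 members of non-lesional skin, 2 of 48 of the day 2 wound and 25 of 293 of the day 7 wound. Its level was 1089 CPM in non-lesional skin (1180 UMIs), 45.5 CPM in the day 2 wound (5 UMIs) and 281 CPM in the day 7 wound (262 UMIs). The day 7 level was 3.88-fold lower than the non-lesional one (3.39 to 4.45). A positive member held 1 to 239 Il17a UMIs with a median of 9 in non-lesional skin, and 1 to 59 with a median of 4 in the day 7 wound.

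The fold was larger for Il17f than for Il17a. It was detected in 48 members of non-lesional skin with 358 UMIs, in 0 of the day 2 wound, and in 5 of the day 7 wound with 26 UMIs, or 330, 0 and 27.9 CPM. In the day 7 wound 1 member held 73.1% of those 26 UMIs. The day 7 level was 11.9-fold lower than in non-lesional skin (7.96 to 18.4), and without the highest member of each library the levels were 7.50 CPM at day 7 and 286 CPM in non-lesional skin. With 3 UMIs as the floor for a count of 0, the day 2 level was at most 0.0825 of the non-lesional level. The ratio of Il17a to Il17f UMIs was 10.1 in the day 7 wound and 3.30 in non-lesional skin.

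The share of members with Il17f was 20% in non-lesional skin (15.1 to 25.6%), 0% in the day 2 wound, where 0 of 48 allows up to 6.25%, and 1.71% in the day 7 wound (0.556 to 3.94%). With every member thinned to 1000 UMIs, which left out 2, 8 and 24 shallower members, the shares were 8.82%, 0% (0 of 40 allows up to 7.50%) and 1.49%. In Pdgfra fibroblasts, which should lack the gene, the unthinned shares were 0.0395%, 0.0809% and 0.0451%, at median depths of 10080.5, 28702 and 26922 UMIs. The order of non-lesional skin and the day 7 wound was therefore the same at equal depth, and the member shares there were above the fibroblast shares.

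Xcl1 showed the same order of libraries in a separate set of members. It was detected in 91, 1 and 50 members in non-lesional skin, the day 2 wound and the day 7 wound, at 769 CPM (833 UMIs) in non-lesional skin, 18.2 CPM (2 UMIs) in the day 2 wound and 298 CPM (278 UMIs) in the day 7 wound. The day 7 level was 2.58-fold lower than the non-lesional one (2.25 to 2.97), and the day 2 level was 0.0237 of it (0.00286 to 0.0857) on 2 UMIs from 1 member. Shares of members with Xcl1 were 37.9%, 2.08% and 17.1% in non-lesional skin, the day 2 wound and the day 7 wound, and 25.2%, 2.50% and 11.5% at 1000 UMIs, against 0.138%, 0.216% and 0.632% of the deeper fibroblasts. A positive member held 1 to 61 Xcl1 UMIs with a median of 6 in non-lesional skin, and 1 to 31 with a median of 3 in the day 7 wound.

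Cxcr6 did not follow this order. Its level was 240 CPM in non-lesional skin (260 UMIs in 107 members), 346 CPM in the day 2 wound (38 UMIs in 21 members) and 292 CPM in the day 7 wound (272 UMIs in 107 members). The day 7 level was 1.21 times the non-lesional one (1.02 to 1.45), with a log2 fold of 0.27 on CPM but of -0.02 under TMM scaling, so its direction depended on the scaling. Shares of members with Cxcr6 were 44.6%, 43.8% and 36.5% in non-lesional skin, the day 2 wound and the day 7 wound, and 23.5%, 25% and 24.9% at 1000 UMIs. In fibroblasts they were 0.0791%, 0.0539% and 0.542%. At 1000 UMIs each share lay within the counting intervals of the others. At 500 UMIs, which kept all members, the share was 10.8% in non-lesional skin (7.20 to 15.5%). It was 27.1% in the day 2 wound (15.3 to 41.8%) and 14.7% in the day 7 wound (10.8 to 19.3%). The day 2 share lay above the intervals of the others, but its own interval overlapped both. Each share came from 1 random draw of UMIs, and the spread between draws was not measured.

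Gzma, which encodes granzyme A, was rare. It was found in 4, 2 and 3 members of non-lesional skin, the day 2 wound and the day 7 wound, at 44.3 CPM (48 UMIs), 27.3 CPM (3 UMIs) and 13.9 CPM (13 UMIs). A single member of each library held 56.25%, 66.7% and 53.8% of those UMIs. The day 7 level was 3.18-fold lower than the non-lesional one (1.70 to 6.40), and the log2 fold of -1.18 became -0.84, within 2-fold, once the highest member of each library was left out. Shares of members with Gzma were 1.67%, 4.17% and 1.02% in non-lesional skin, the day 2 wound and the day 7 wound, or 0.840%, 2.50% and 0.743% at 1000 UMIs, against 0.0198% of fibroblasts in non-lesional skin and 0 of 3709 and 0 of 2215 in the wounds, which allow up to 0.0809% and 0.135%. All 4 Gzma-positive members of non-lesional skin also carried Xcl1, and 1 of 3 did in the day 7 wound.

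**Figure D2:**
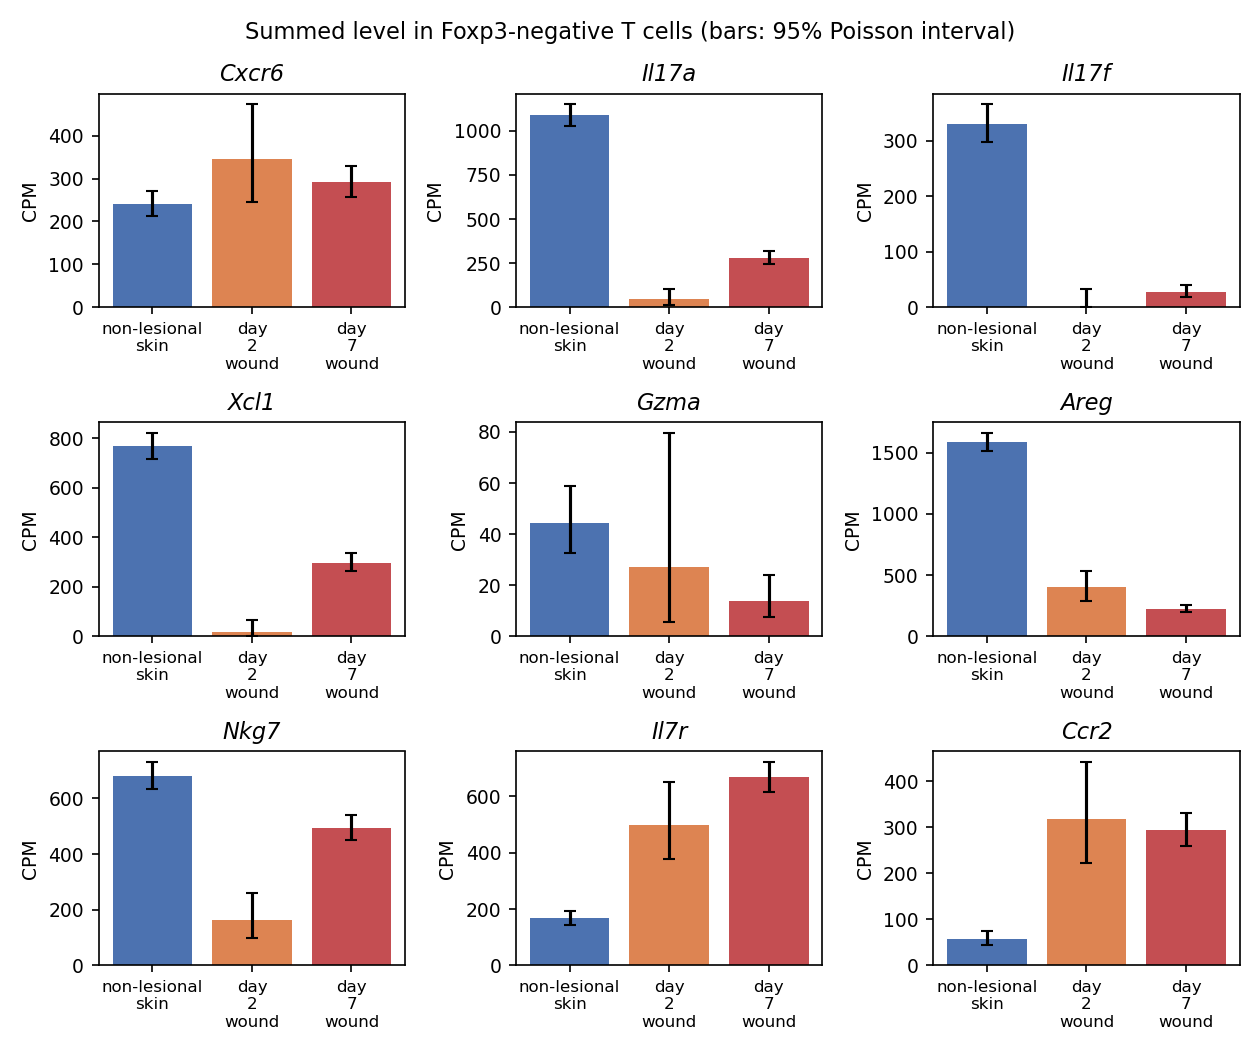
Bars show levels of 9 genes in CPM over the summed members of each library, with exact 95% Poisson intervals from counting. Il17a, Il17f and Xcl1 are highest in non-lesional skin, whereas Il7r and Ccr2 are higher in both wounds, and Gzma rests on 4, 2 and 3 members.

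No member carried Xcl1 together with Il17a or Il17f in any of the 3 libraries. Zero of 240, 0 of 48 and 0 of 293 allow shares of up to 1.25%, 6.25% and 1.02%. The split into members with Il17a or Il17f, members with Xcl1 and members with neither was made after the values were seen, so the genes that define it carry no test. Members with Il17a or Il17f numbered 66 in non-lesional skin (27.5%, 22.0 to 33.6%), 2 in the day 2 wound (4.17%) and 26 in the day 7 wound (8.87%, 5.88 to 12.7%). Members with neither numbered 83 (34.6%), 45 (93.8%) and 217 (74.1%) in non-lesional skin, the day 2 wound and the day 7 wound. At 1000 UMIs those with an IL-17 gene were 19.7%, 2.50% and 6.69%, and those with neither were 55%, 95% and 81.8%. The overlap of 0 could not change there, because thinning only removes UMIs.

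As a share of all kept barcodes the picture differed from that within the members. Xcl1-positive members were 0.972% of kept barcodes in the day 7 wound and 0.884% in non-lesional skin. Members with Il17a or Il17f were 0.506% in the day 7 wound and 0.641% in non-lesional skin. These shares have no intervals. The limit on mitochondrial UMIs left out 1632 of 7317 barcodes at day 7, against 368 of 10857 in non-lesional skin. The order of the 2 Xcl1 shares is therefore not settled. Members with neither were 4.22% of kept barcodes in the day 7 wound and 0.806% in non-lesional skin. The larger share of members at day 7 was thus made up mostly of cells in which neither cytokine gene nor Xcl1 was detected. In the day 2 wound the 3 shares were 0.0252% for an IL-17 gene, 0.0126% for Xcl1 and 0.566% for neither.

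**Figure D3:**
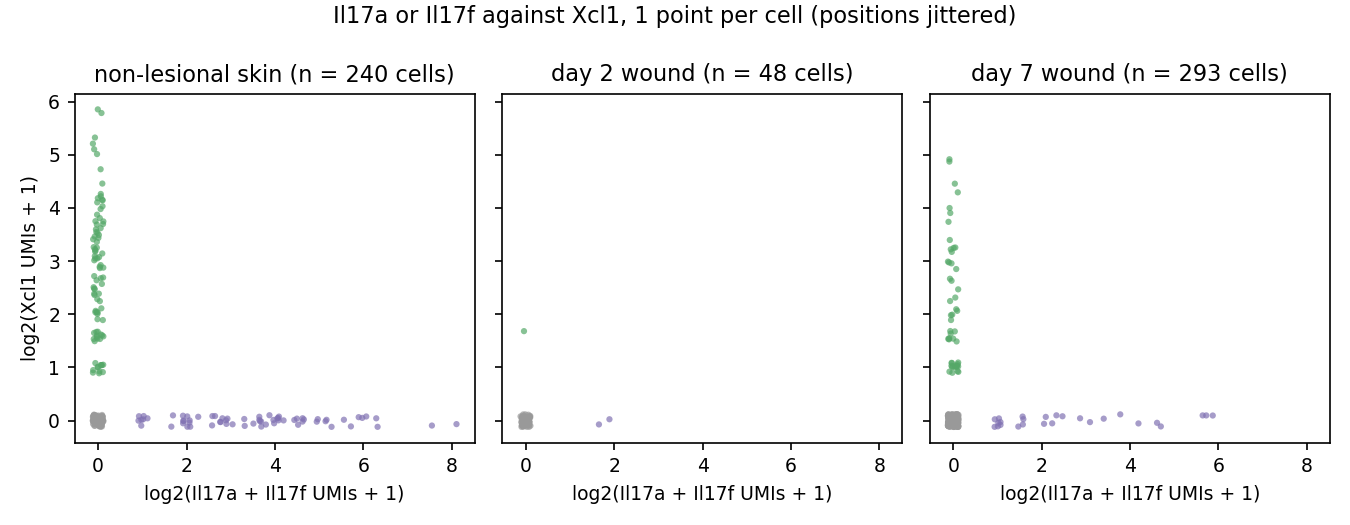
Each point is a member, with log2(UMIs + 1) of Il17a and Il17f together on the x axis and of Xcl1 on the y axis, in 1 panel per library and with a small random shift. Points lie along the axes or at the origin, and no member has UMIs of both.

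**Figure D4:**
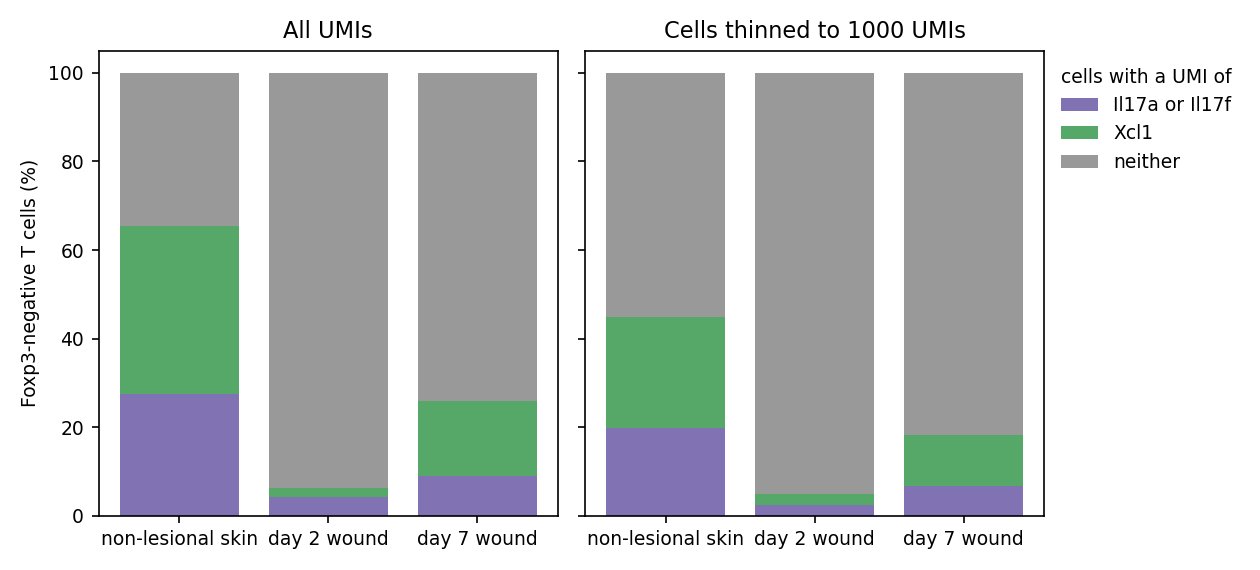
Stacked bars give the percentage of members with Il17a or Il17f, with Xcl1 and with neither in each library, as counted and after thinning to 1000 UMIs. Members with neither are 34.6% in non-lesional skin and 74.1% in the day 7 wound as counted.

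Members with Il17a or Il17f shared further genes that the split did not use. Of the Il17f-positive members, 39 of 48 in non-lesional skin and 4 of 5 in the day 7 wound also carried Cxcr6. Of members without Il17f, 35.4% in non-lesional skin and 35.8% in the day 7 wound did. At 1000 UMIs 9 of 21 and 2 of 4 Il17f-positive members carried Cxcr6, against 21.7% and 24.5% of those without Il17f. In non-lesional skin 39 members carried both cytokine genes, 18 Il17a alone and 9 Il17f alone. In the day 7 wound 4 members carried both, 21 Il17a alone and 1 Il17f alone. Blk, a Src-family kinase of IL-17-producing gamma-delta cells, was found in 53.8% of the 26 day 7 members and 60.6% of the 66 non-lesional members, and was at 0 in all Xcl1-positive members of both libraries. Il23r, the IL-23 receptor, was likewise at 0 in Xcl1-positive members of both libraries. In members with IL-17 genes it stood at 76.5 CPM in the day 7 wound (7 UMIs) and 104 CPM in non-lesional skin (36 UMIs). The ratio was 0.736 (0.276 to 1.68). Cd163l1, a scavenger receptor of gamma-delta cells, stood at 503 CPM (46 UMIs) in the day 7 and 231 CPM (80 UMIs) in the non-lesional members with IL-17 genes. Unlike Blk and Il23r, it was also found in Xcl1-positive members, 4 of 50 in the day 7 wound and 9 of 91 in non-lesional skin.

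Many Xcl1-positive members carried Nkg7 and some other genes of cytotoxic or innate-like cells. Nkg7 was found in 42 of 50 of them in the day 7 wound and 87 of 91 in non-lesional skin. Of the Il17a-positive members, 2 of 25 in the day 7 wound and 2 of 57 in non-lesional skin carried it. Members without Xcl1 also carried Nkg7, 29.6% of them in the day 7 wound and 20.1% in non-lesional skin. Of all Nkg7-positive members, 36.8% in the day 7 wound and 74.4% in non-lesional skin carried Xcl1. Fcer1g, a signalling adaptor of innate-like lymphocytes, was found in 72% and 92.3% of Xcl1-positive members, Klrd1, the killer receptor CD94, in 58.0% and 76.9%, and Ctsw, a protease of cytotoxic cells, in 74.0% and 94.5%, in the day 7 wound and in non-lesional skin. Gzmc, which encodes granzyme C, was found in 12 of 50 and 12 of 91 of them, and 12 of all 16 and 12 of all 13 Gzmc-positive members were Xcl1-positive. These percentages are of members at their own depth, whose median was lower in the day 7 wound. Shares of Fcer1g, Klrd1 and Ctsw in members without Xcl1 are not given here. A list of 10 natural killer and innate lymphoid genes summed to 1726 CPM in Xcl1-positive members at day 7, with 5 at 0. In those of non-lesional skin it summed to 1920 CPM, with 1 at 0. In members with IL-17 genes it summed to 2098 CPM at day 7 and 1821 CPM in non-lesional skin. Rora alone stood at 1693 and 1694 CPM there. At day 7 another granzyme gene, Gzmb, lay mostly in members with neither, as given below.

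Ranked by likeness in cells thinned to 1000 UMIs, the 10 genes most like Xcl1 over non-lesional skin and the day 7 wound were Gzmc, Atp1b1, Cntn1, Bend4, Cd244, Sema6d, Nrip3, P4ha2, Avil and Hpgds. Gzmc, at the top, stood at 226 CPM in Xcl1-positive and 92.4 CPM in other members of the day 7 wound. In non-lesional skin it stood at 1050 and 22.5 CPM. Its day 7 values rested on 7 UMIs, in 3 of 31 Xcl1-positive members, and on 22 UMIs in other members. Bend4, Nrip3 and Hpgds had 4, 3 and 5 day 7 UMIs in Xcl1-positive members, and 1, 0 and 7 in others. Atp1b1, a sodium pump subunit, stood at 484 and 46.2 CPM in the day 7 wound and 467 and 78.7 CPM in non-lesional skin. For Il17f, where only non-lesional skin had enough positive members, Il17a led with 9524 CPM in 21 positive and 525 CPM in 217 other members. The NF-kappaB genes Relb and Birc3 followed, on 9 and 8 UMIs in positive members and 13 each in the others. For Cxcr6 the 10 genes rested on few UMIs each and included Blk, Zbtb16 and Cd163l1. Blk stood at 164 CPM in Cxcr6-positive and 24.8 CPM in other members of the day 7 wound, and at 143 and 44.0 CPM in those of non-lesional skin. Gzma had too few positive members for such a ranking.

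Within each of the 3 sets, day 7 and non-lesional members still differed. Among members with IL-17 genes, Ccr2, a receptor that brings cells to monocyte-attracting chemokines, was 568 CPM in the day 7 wound (52 UMIs) and 83.7 CPM in non-lesional skin (29 UMIs), a 6.79-fold difference (4.23 to 11.1). Cxcr6 was 961 CPM at day 7 and 430 CPM in non-lesional skin (2.24-fold, 1.70 to 2.93), and Il7r was 896 CPM at day 7 and 332 CPM in non-lesional skin (2.70-fold, 2.01 to 3.61). Il17a itself was 2862 CPM at day 7 and 3405 CPM in non-lesional skin in these members, and Il17f 284 CPM at day 7 and 1033 CPM in non-lesional skin. Both genes define the set, so these levels are a description. Rgs1, a G-protein regulator of tissue-resident lymphocytes, was 2895 CPM at day 7 and 892 CPM in non-lesional skin (3.25-fold higher, 2.74 to 3.84), with 37.0% of its day 7 UMIs in 1 member. Ccl4, a chemokine, had 112 UMIs in the day 7 wound and 0 in non-lesional skin, but 96.4% of them were in 1 member. The fibroblast list stood at 4851 CPM in the day 7 and 32409 CPM in the non-lesional members of this set, and the macrophage list at 918 CPM (84 UMIs) in the day 7 and 60.6 CPM (21 UMIs) in the non-lesional ones. Their part in these differences was not tested.

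Among Xcl1-positive members, Areg, which encodes the growth factor amphiregulin, was 135 CPM in the day 7 wound (26 UMIs in 6 members) and 2868 CPM in non-lesional skin (1201 UMIs in 43 members), 21.2-fold lower (14.4 to 32.6). Rgs1 was lower, at 2339 CPM at day 7 and 6986 CPM in non-lesional skin (2.99-fold lower, 2.70 to 3.31). Ctla2a, a protease inhibitor, was 2469 CPM at day 7 and 7151 CPM in non-lesional skin, and the surface protein gene Cd7 was 837 CPM at day 7 and 1581 CPM in non-lesional skin. Il7r was higher, at 260 CPM at day 7 (50 UMIs) and 14.3 CPM in non-lesional skin (6 UMIs). Nkg7 at 1331 CPM at day 7 and 1493 CPM in non-lesional skin and Fcer1g at 1295 CPM at day 7 and 1306 CPM in non-lesional skin lay close together, with ratios of 0.892 (0.768 to 1.03) and 0.991 (0.850 to 1.15). Tnf, at 541 CPM at day 7 and 74.0 CPM in non-lesional skin, and Ccl4, at 2818 CPM at day 7 and 136 CPM in non-lesional skin, were higher in the day 7 wound, but 56.7% and 67.7% of their day 7 UMIs came from 1 member. Keratinocyte genes summed to 52.0 CPM in the day 7 and 4294 CPM in the non-lesional members of this set, and dendritic cell genes to 7081 CPM at day 7 and 40.6 CPM in non-lesional skin. Their part was not tested.

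Among members with neither, Il7r was 758 CPM in the day 7 wound and 192 CPM in non-lesional skin (3.95-fold, 3.03 to 5.25), and Ccr2 was 325 CPM at day 7 and 59.7 CPM in non-lesional skin (5.44-fold, 3.40 to 9.22). Ms4a4b was 219 CPM at day 7 and 56.6 CPM in non-lesional skin, and S1pr1, the receptor that lets lymphocytes leave tissue, was 122 CPM at day 7 and 40.9 CPM in non-lesional skin. Il1rl1, the IL-33 receptor, was 193 CPM at day 7 and 56.6 CPM in non-lesional skin, and was detected in 0 members of the other sets in both libraries. Gzmb, which encodes granzyme B, was 148 CPM at day 7 (96 UMIs in 28 members) and 9.43 CPM in non-lesional skin (3 UMIs in 3 members), a ratio of 15.7 (5.21 to 77.4). Csf2, which encodes the cytokine GM-CSF, was 20.03 CPM at day 7 and 173 CPM in non-lesional skin, 8.63-fold lower (4.66 to 17.2), with 89.1% of its 55 non-lesional UMIs in 1 member. Over all genes with at least 10 UMIs the median log2 fold was 0.25 in this set, and 0.03 in both of the others. Dendritic cell genes summed to 1138 CPM in the day 7 and 88.0 CPM in the non-lesional members of this set, and their part was not tested.

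**Figure D5:**
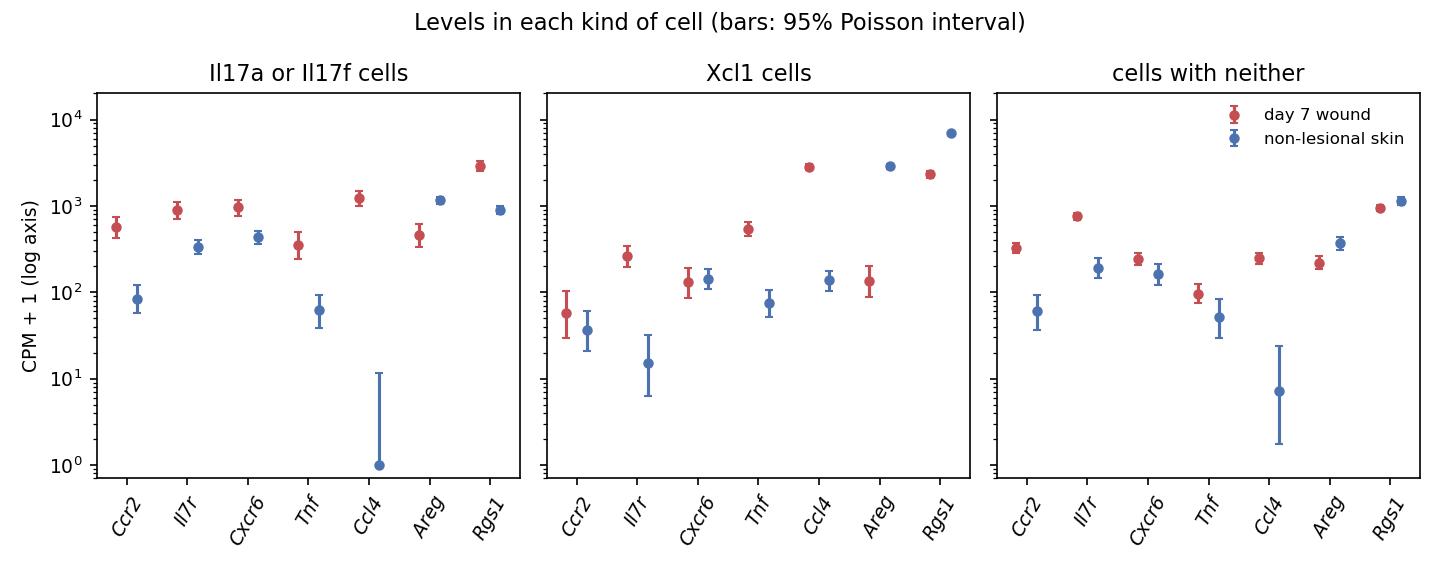
Levels of 7 genes, as CPM + 1 on a log axis, are drawn for members with Il17a or Il17f, with Xcl1 and with neither, the day 7 wound to the left of non-lesional skin. Il7r is higher in the day 7 wound in each set, Ccr2 is higher where Xcl1 is absent and has overlapping intervals among Xcl1-positive members, and Areg and Rgs1 are lower among Xcl1-positive members.

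Few members carried a detected coreceptor. Neither Cd4 nor Cd8a nor Cd8b1 was found in 92.1% of members in non-lesional skin, 72.9% in the day 2 wound and 79.2% in the day 7 wound, or in 97.9%, 85.0% and 87.4% at 1000 UMIs. Cd4 alone was found in 11, 6 and 43 members and a Cd8 gene alone in 8, 7 and 17. At equal depth Cd4 alone was found in 7.43% of members in the day 7 wound and 1.26% in non-lesional skin. These RNAs are detected sparsely, so a missing coreceptor UMI does not show a cell without the protein.

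Over all genes, changes between libraries were counted where summed member levels differed at least 2-fold on log2(CPM + 10), among genes with at least 10 UMIs in the pair. Between the day 7 wound and non-lesional skin 759 of 10101 genes were higher (7.51%) and 335 lower (3.32%). The median gene was higher by 0.20 on the log2 scale, against -0.01 under both TMM and median-of-ratios scaling, which gave 471 higher and 636 lower, and 463 and 633. The lists below are to be read against these shares and that shift. Some genes, such as Il7r, S1pr1, Ctla4, Tnfrsf4, Areg, Il17a and Il17f, were counted in several lists, so the counts of different lists are not independent.

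Of 20 type 17 genes tested, 0 were higher at day 7 and 3 lower (list median log2 fold -0.30), and the 3 were Il17a, Il17f and 5830411N06Rik, a scavenger receptor gene of gamma-delta cells. Maf, a transcription factor of IL-17 cells, was called in neither direction, at 536 CPM at day 7 and 330 CPM in non-lesional skin (1.62, 1.41 to 1.86). Of 16 cytotoxic genes, 1 was higher and 3 lower (list median log2 fold -0.45). Gzmb was the higher one, at 115 CPM in the day 7 wound (107 UMIs in 34 members) and 19.4 CPM in non-lesional skin (21 UMIs in 7 members, 61.9% in 1 of them), 5.92-fold (3.68 to 9.95), and Gzma, Gzmc and Klre1 were lower.

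Of 14 type 1 genes, 4 were higher and 2 lower (list median log2 fold 0.51). The higher ones were Il18r1, the chemokines Ccl3 and Ccl4 and the cytokine Tnf, and the lower ones Xcl1 and Csf2. Ccl4 stood at 872 CPM in the day 7 wound and 54.5 CPM in non-lesional skin, 16.0-fold (12.3 to 21.2), with 45.1% of its day 7 UMIs in 1 member, and without the highest members its log2 fold was 3.35 in place of 3.78. Without members over 1% of other cells' UMIs it was 2.39. Under TMM scaling 3 were higher and 3 lower, with Il18r1 at a log2 fold of 0.92 in place of 1.20. Ifng, which encodes interferon-gamma, was 124 CPM at day 7 and 122 CPM in non-lesional skin. Of 7 type 2 genes, 3 were higher and 2 lower. Il1rl1 stood at 134 CPM in the day 7 wound (125 UMIs in 41 members) and 16.6 CPM in non-lesional skin (18 UMIs in 7 members), 8.06-fold (4.90 to 14.0), while fibroblasts, which also carry it, were at 125 CPM at day 7 and 5.14 CPM in non-lesional skin. The IL-25 receptor gene Il17rb and the cytokine gene Il10 were higher with 3 UMIs each in non-lesional skin. Areg was 7.02-fold lower (6.08 to 8.13), at 226 CPM in 38 members of the day 7 wound and 1587 CPM in 89 members of non-lesional skin, and Il13 was lower as well.

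Of 11 genes of recirculating T cells, 5 were higher and 1 lower (list median log2 fold 0.99). Il7r was 669 CPM in the day 7 wound and 168 CPM in non-lesional skin (3.98-fold, 3.37 to 4.72), and S1pr1 was 95.4 CPM at day 7 and 15.7 CPM in non-lesional skin (6.08-fold, 3.59 to 10.9). The lower gene was Dapl1, with 0 UMIs in the day 7 wound and 88 in non-lesional skin, 53.4% of them in 1 member. Of 12 residency genes, 2 were higher and 1 lower (list median log2 fold 0.01). The lower one was Rgs1, at 1425 CPM at day 7 and 3320 CPM in non-lesional skin over all members, although it was higher at day 7 among members with IL-17 genes, and Bhlhe40, a transcription factor of resident T cells, was higher at 444 CPM at day 7 and 178 CPM in non-lesional skin. Under TMM scaling 3 recirculation genes and 0 residency genes were higher.

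Of 13 chemokine receptors, 4 were higher and 0 lower. Ccr2 was 294 CPM in the day 7 wound (274 UMIs in 116 members) and 58.2 CPM in non-lesional skin (63 UMIs in 41 members), 5.05-fold (3.83 to 6.75), and Cxcr4, Ccr1 and S1pr1 were the others. Of 14 costimulatory and inhibitory receptors, Ctla4, Tnfrsf4 and Tnfrsf9 were higher and 0 were lower. Ctla4, an inhibitory receptor, was 203 CPM at day 7 and 31.4 CPM in non-lesional skin (6.45-fold, 4.46 to 9.59). Of 10 genes of regulatory T cells, 4 were higher and 0 lower. UMIs of at least 2 of Il2ra, Ctla4 and Ikzf2 were found in 72 of 293 members in the day 7 wound (24.6%) and 44 of 240 in non-lesional skin (18.3%), and in 150 of 162 and 5 of 6 Foxp3-positive T cells. Without those members Cxcr6 was 231 CPM and Il17f 2.84 CPM in the day 7 wound, against 292 CPM of Cxcr6 and 27.9 CPM of Il17f there with them.

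Of 21 interferon-induced genes, 9 were higher at day 7 and 0 lower (list median log2 fold 0.99), and 8 were higher under TMM scaling. Of the day 7 UMIs of the antiviral gene Rsad2, 59.1% came from 1 member. Of 22 dividing-cell genes, 3 were higher and 0 lower (list median log2 fold 0.48). Of 22 immediate early and stress genes, 6 were higher and 3 lower, against 2 and 6 under TMM scaling. The heat shock genes Hspa1a and Hspa1b, near-identical copies between which reads can be split, stood at 5402 and 6004 CPM in the day 7 wound and 1290 and 1211 CPM in non-lesional skin. Nr4a2, a nuclear receptor induced by receptor signalling, was lower at 234 CPM at day 7 and 785 CPM in non-lesional skin.

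The largest differences chosen by the naming rule were in part genes of other cells. At day 7 the 10 higher genes were Col5a3, Spp1, Col6a3, Cxcl1, Ccl4, Col6a1, Col6a2, Ccl3, Cald1 and Loxl2, with 31.2% to 65.3% of their day 7 UMIs in 1 member. Most of these are matrix or contractile genes. The 10 lower genes were the epidermal genes Krt10, Lgals7, Calm4, Krt1 and Dsp together with Il17f, Areg, Tuba4a, Klf4 and Map1b. Tuba4a, a tubulin, was 51.4 CPM in the day 7 wound and 347 CPM in non-lesional skin, in 45 and 152 members, and no member held more than 4.17% of its UMIs. Krt10, a keratin of the upper epidermis, was 12.9 CPM at day 7 and 809 CPM in non-lesional skin, with 49.8% of the non-lesional UMIs in 1 member.

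In the day 2 wound, compared with non-lesional skin, 1099 of 8261 genes were higher (13.3%) and 1374 lower (16.6%). TMM scaling gave 516 higher and 2050 lower, median-of-ratios scaling 578 and 1980, and the median gene was at -0.30 in place of 0.01, so the balance depended on the scaling. Of 20 type 17 genes 2 were higher and 4 lower, and of 16 cytotoxic genes 3 were higher and 6 lower. Il17a was 24.0-fold lower (10.2 to 73.9), and Nkg7 was 164 CPM (18 UMIs in 11 members) in the day 2 wound and 681 CPM in non-lesional skin, 4.16-fold lower (2.61 to 7.06). Of 14 type 1 genes 8 were higher and 2 lower, and of 21 cytokine receptors 10 higher and 1 lower. Counts of these 2 lists under TMM scaling are not given here. The 8 were Il12rb1, Il18r1, Il18rap, Ccl3, Ccl4, Ccl5, Stat4 and Tnf, and the first 3 were also among the 10 receptors. For Ccl4 and Ccl3, 42.8% and 38.7% of the day 2 UMIs lay in 1 member. Day 2 barcodes without CD3 UMIs held them at 777 and 424 CPM. Of 16 interferon-induced genes 10 were higher and 0 lower, or 4 and 0 under TMM scaling. Il7r was 2.98-fold higher (2.16 to 4.05) and Ccr2 5.47-fold higher (3.51 to 8.4).

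Spry2, an inhibitor of growth factor signalling, had 0 UMIs in the day 2 wound and 259 UMIs in 85 members of non-lesional skin, so that its day 2 level was at most 0.114 of the other on a floor of 3 UMIs. The 10 higher genes by the naming rule were Il1b, S100a9, Spp1, Ifitm1, S100a8, Ccl4, Ptgs2, Irg1, Il1rn and Ccl3, which are largely genes of neutrophils and other myeloid cells. Il1b stood at 3682 CPM in the day 2 wound, from 10 of 48 members with 45.2% in 1 of them, and at 1.85 CPM in non-lesional skin. The neutrophil list was at 1518 CPM in the day 2 and 2.77 CPM in the non-lesional members, and its part in these differences was not tested.

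Between the 2 wounds, 1499 of 8786 genes were higher at day 7 (17.1%) and 466 lower (5.30%). Il17a was 6.18-fold higher at day 7 than at day 2 (2.61 to 19.2) and Xcl1 16.4-fold (4.49 to 136), on 5 and 2 UMIs at day 2. Il7r and Ccr2 were close, with ratios of 1.34 (1.01 to 1.80) and 0.923 (0.648 to 1.35). Of 22 dividing-cell genes 12 were higher at day 7 and 1 lower, of 19 type 17 genes 3 were higher and 2 lower, and of 14 cytotoxic genes 5 and 2. Both wound libraries were also set against the same non-lesional library in the comparisons above.

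Against Foxp3-positive T cells of the same day 7 library, the members had more Cxcr6, at 292 CPM in members and 47.9 CPM in Foxp3-positive cells, 6.09-fold (4.37 to 8.67). At 1000 UMIs the gene was found in 24.9% of members and 8.02% of Foxp3-positive cells, whose median depths were 2302 and 3510 UMIs before thinning. Xcl1 was found in 50 of 293 members and 0 of 162 Foxp3-positive cells, a count that allows up to 1.85%. Il1r1, the IL-1 receptor, was 78.2 CPM in members and 10.5 CPM in Foxp3-positive cells (7.44-fold, 3.71 to 16.9), and the chemokine gene Ccl5 was 307 CPM in members and 72.4 CPM in Foxp3-positive cells (4.23-fold, 3.21 to 5.66). Ctla4 was 5.91-fold lower in members (5.06 to 6.94), at 203 CPM in members and 1198 CPM in Foxp3-positive cells, and Ikzf2, which encodes the transcription factor Helios, was 532 CPM in members and 2018 CPM in Foxp3-positive cells. Ccr2 at 294 CPM in members and 551 CPM in Foxp3-positive cells and Areg at 226 CPM in members and 417 CPM in Foxp3-positive cells were lower in members, and Il7r was 669 CPM in members and 527 CPM in Foxp3-positive cells, a ratio of 1.27 (1.12 to 1.44). Non-lesional skin and the day 2 wound held 6 and 9 Foxp3-positive cells, too few for such a comparison.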

How the data were processed

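Expression was measured as UMI counts per gene and barcode in 3 libraries. The counts were deposited as raw count matrices, per the file headers written by Cell Ranger 5.0.0, while the submitters' processing notes name Cell Ranger 3.0.2, Seurat 3.0 and mm10. Groups came from the labels, with 1 library per group. Members and gene lists were chosen with earlier results of these data known. Member UMIs were summed per library and scaled to CPM; a gene was called at 2-fold on log2(CPM + 10) among genes with at least 10 UMIs in the pair. The rule for naming genes took, in each direction, the 10 largest folds among genes at 100 CPM or more and 10 UMIs, in at least 10% of members, and at 0.2 or more of the level in fibroblasts and other non-T cells, with the 4 largest of each list. Genes named for the 3 sets of members and for the comparison with Foxp3-positive cells were chosen after their values were seen. Likeness was the median over libraries of the log2 ratio, in thinned members with 10 CPM added, between members with and without a UMI of the gene, among genes with at least 20 UMIs in libraries holding 10 or more of both. Intervals are exact (Poisson, Clopper-Pearson, conditional binomial) at 95%, and a count of 0 has a limit of 3 counts. Doublets were left in, as the rule has no doublet step, and taken out in an alternative based on Scrublet (scanpy 1.11.5). Its own threshold marked 422, 1 and 0 barcodes in non-lesional skin, the day 2 wound and the day 7 wound, and the alternative left out the highest scores at 0.8% per 1000 barcodes. Positions come from GENCODE M21 by Ensembl ID (51 of 51 matched). Tools were Python 3.11.15, numpy 2.4.6, scipy 1.17.1, pandas 2.3.3, R 4.3.3 and edgeR 4.0.16, which supplied the TMM factors only. The fold and calling steps were checked on simulated counts. T cell receptor chain genes were not analysed here, and some genes of the lists are not reported here. Alternatives changed the CD3 and gene minimums, doublets, members rich in RNA of other cells or with regulatory genes, scaling, depth, pseudocount and the filter on low genes.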

Additional observations from a re-analysis of the deposited data

How the results depend on the processing

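All values here are for Foxp3-negative members. The member shares, counts of genes past 2-fold, named genes, lists, the levels and shares of Cxcr6, Il17f, Gzma and Xcl1, and the shares with an IL-17 gene or Xcl1 were recomputed under the alternatives that bear on each. The comparisons within the 3 sets, the likeness ranking, the coreceptors and the comparison with Foxp3-positive cells were not. Il17f, Xcl1 and Areg stayed lower in the day 7 wound than in non-lesional skin under each alternative in which their folds were recomputed. The absence of members with Xcl1 and an IL-17 gene together could not be checked in this way. No alternative added members or UMIs, so none could have produced such a member. With 3 CD3 UMIs, members were 2.01%, 0.327% and 4.41% of kept barcodes in non-lesional skin, the day 2 wound and the day 7 wound, Gzma was 28.3 CPM in non-lesional skin, and Xcl1 was 0 CPM and 0% in the day 2 wound and 358 CPM in the day 7 wound. Without the highest doublet scores, Xcl1 was 831 CPM in non-lesional skin and Irg1 had a log2 fold of 1.52 for day 7 against day 2, in place of -3.71. Without members over 1% of other cells' UMIs, members were 4.59% at day 7, Cxcr6 was 367 CPM at day 7 and 274 CPM in non-lesional skin, and in non-lesional skin Il17f was 368 CPM and Xcl1 847 CPM. Sparc then had a log2 fold of 0.071 for day 2 against non-lesional skin, and Irg1, Il1rn and Nlrp3 of 1.86, 0.46 and 1.73 for day 7 against day 2, all negative as reported. Without members carrying 2 of Il2ra, Ctla4 and Ikzf2, Ccr7 turned to 1.12 for day 7 against day 2, Il17f was 2.84 CPM and 0.452% at day 7 and 267 CPM in non-lesional skin, Xcl1 was 385 CPM at day 7 and in non-lesional skin 877 CPM and 44.9%, and Cxcr6 was 231 CPM at day 7. TMM scaling called 516 genes higher at day 2 than in non-lesional skin, 471 higher and 636 lower at day 7, and 303 lower at day 7 than day 2, and median-of-ratios scaling called 578, 463 and 633 for the comparisons with non-lesional skin. A pseudocount of 1 CPM called 2012 higher and 656 lower at day 7 than in non-lesional skin and 812 lower than at day 2. At 1000 UMIs, 539 genes were higher and 808 lower at day 2 than in non-lesional skin and 832 higher at day 7 than day 2. Shares in non-lesional skin were then 23.5% for Cxcr6, 8.82% for Il17f, 25.2% for Xcl1 and 19.7% for an IL-17 gene, those of Cxcr6 were 25% at day 2 and 24.9% at day 7, and that of Xcl1 was 11.5% at day 7. Levels were 383 CPM for Cxcr6 at day 7, and in non-lesional skin 294 CPM for Cxcr6 and 286 CPM for Il17f. At 500 UMIs, shares were 10.8%, 27.1% and 14.7% for Cxcr6 in non-lesional skin, day 2 and day 7, 6.25% for Il17f, 22.1% for Xcl1 and 15.0% for an IL-17 gene in non-lesional skin, 6.48% for Xcl1 and 5.12% for an IL-17 gene at day 7, and 0% for Gzma at day 2. Leaving out each gene's highest member gave 286 CPM for Il17f, 19.4 CPM for Gzma and 713 CPM for Xcl1 in non-lesional skin, 0 CPM for Xcl1 at day 2, and 7.50 CPM for Il17f and 6.43 CPM for Gzma at day 7. This last alternative, and those for the share with an IL-17 gene, were chosen after seeing the data. The cause of these shifts was not tested. Day 2 values rest on 48 members, in which 1 UMI is 9.09 CPM. No paired analysis was possible because each group has 1 library.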

Other observations

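Other lists, set between the day 7 wound and non-lesional skin, are given by their counts of genes past 2-fold, against 7.51% of all genes higher and 3.32% lower. Of 19 T cell signalling genes 4 were higher and 0 lower, among them the surface receptors Cd5 and Cd6 and the GTPases Gimap3 and Gimap4 of lymphocyte survival. Of 22 cytokine receptor genes 5 were higher and 0 lower, including the interleukin-1 decoy receptor Il1r2 and Csf2rb, a shared receptor chain with 1 UMI in non-lesional skin. Of 20 glycolysis and hypoxia genes 2 were higher, Hif1a and Pdk1, and 0 were lower, against 1 higher and 2 lower under TMM scaling. Of 14 genes of repair mediators 1 was higher, the cytokine gene Lif, and 3 were lower, Areg, Il17a and Il17f. Of 18 S100, galectin and motility genes 0 passed 2-fold in either direction.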
